A study of Homo sapiens with 54 samples.

Results

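BCYRN1, RN7SK, RN7SL1, RN7SL2, RMRP and RPPH1 are short noncoding RNAs transcribed by RNA polymerase III. They are 6 of the 50037 rows of the expression table and were selected by symbol from a list that names no threshold. That list was drawn up with the values of this table in view, so any difference given here may have entered the choice. The adjusted p-values therefore describe these libraries and are no independent support. The rows were read in 2 human tumour cell lines, HCT116 from a colon cancer and HepG2 from a liver tumour, labelled as a liver cancer stem cell. The 54 libraries fall into 18 groups of 3, 9 in either line. Treatment lasted 3 h or 6 h and consisted of TNF-α (100 ng/mL), Torin1 (1 µM), IL-6 (50 ng/mL) or IL-10 (50 ng/mL, a dose that only the series text gives). Torin1 is an inhibitor of the kinase mTOR, and the other agents are cytokines. The NC cells of the same line received complete medium in equal volume, and the labels give no time for them. The labels name no engineered allele in either line.

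RNA polymerase III makes transfer RNAs, 5S ribosomal RNA and a set of short structured RNAs that work inside ribonucleoprotein particles. RN7SL1 and RN7SL2 encode 7SL, the scaffold of the signal recognition particle, which brings ribosomes making secreted proteins to the endoplasmic reticulum. RN7SK encodes 7SK, which holds the elongation kinase P-TEFb inactive together with HEXIM1. RMRP and RPPH1 are the RNA parts of RNase MRP and RNase P, which cut precursor ribosomal RNA and precursor transfer RNA. BCYRN1, or BC200, is a primate RNA derived from an Alu element, known from neurons and tumours and from the control of translation. mTOR signalling is known to sustain polymerase III through its repressor MAF1. Polymerase III transcripts carry no poly(A) tail of the kind that polymerase II adds, and these libraries were poly(A)-selected. The values give the molecules that entered such a library, which is not the amount of these RNAs in the cell.

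RN7SL1 lies within the span of RPS29, on the opposite strand and with no GENCODE exon of RPS29 over it. BCYRN1 lies within the span of EPCAM-DT. Whether an exon of another gene lies over BCYRN1 was not settled, as EPCAM-DT had no GENCODE entry under that name. RN7SL1, RN7SL2 and RN7SL3, a further 7SL copy that is no member, are near-identical. Reads of any of these copies could be split between rows by the counting, so the 7SL values are uncertain as to their copy. RefSeq (GRCh38.p14) places RN7SK at chr6:52995620-52995951 on the plus strand, 336 bases from GSTA4. RMRP is at chr9:35657750-35658019 on the minus strand, 273 bases from CCDC107, and RPPH1 at chr14:20343071-20343411 on the minus strand, 224 bases from PARP2.

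Values are FPKM, fragments scaled to transcript length and library size, as deposited. HepG2 libraries held between 46.3 and 93.7 M gene-assigned reads (M, mega), and HCT116 libraries between 38.5 and 55.7 M. The 6 rows together took 0.00155% to 0.0138% of the reads of a library in HCT116 and 0.000645% to 0.00376% in HepG2. A reading of 3 whole reads corresponds to 0.25 to 0.366 FPKM for BCYRN1 and 0.151 to 0.221 FPKM for RN7SK in HCT116. The labelled lines were checked on defining genes: 7 hepatocyte markers summed to 15420 to 18210 FPKM in HepG2 and 2.05 to 10.0 in HCT116. The 7 colon epithelium markers summed to 165 to 191 FPKM in HCT116 and 146 to 169 in HepG2, where 3 of them were listed at 0. Those ranges overlap and the sum includes EPCAM, which HepG2 also expressed, so the colon sum does not tell the lines apart. Blood markers reached at most 0.0582 FPKM in any library, and fibroblast markers 1.81 in HCT116 and 0.0274 in HepG2. Whether the 3 libraries of a group stem from different cultures is not said, and the tests can then speak only to library-to-library variation, possibly technical. In bulk samples, fewer cells of a type and less RNA per cell cannot be told apart.

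Of the 6 members, 4 could be tested and 2 could not. RN7SL1, the signal recognition particle RNA, was the highest by FPKM, with 24.4 to 399 (median 144) over the 27 HCT116 libraries and 14.2 to 105 (median 44.2) over the 27 HepG2 libraries. BCYRN1 ran from 16.7 to 85.4 (median 30.8) in HCT116 and from 6.2 to 71.5 (median 12.7) in HepG2. RN7SK was lower, at 1.01 to 28.7 FPKM (median 3.48) and 0.902 to 8.54 (median 2.31) in the same order of the lines. RMRP, the RNase MRP RNA, was at the edge of detection, with 0.617 to 14.7 FPKM (8 to 203 reads) in HCT116 and 0 to 2.3 FPKM (0 to 33 reads) in HepG2. RPPH1, its counterpart in RNase P, was above 0 in 8 of 27 HCT116 libraries, at 0.196 FPKM or less, and in 1 of 27 HepG2 libraries, on a single read. RN7SL2 was listed at 0 in all 54 libraries, although it shares nearly all its bases with RN7SL1. At this depth 3 reads on RN7SL2 would read 0.167 to 0.245 FPKM in HCT116 and 0.114 to 0.237 in HepG2. RPPH1 and RN7SL2 were below 1 FPKM in every library and were not tested.

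**Figure D1:**
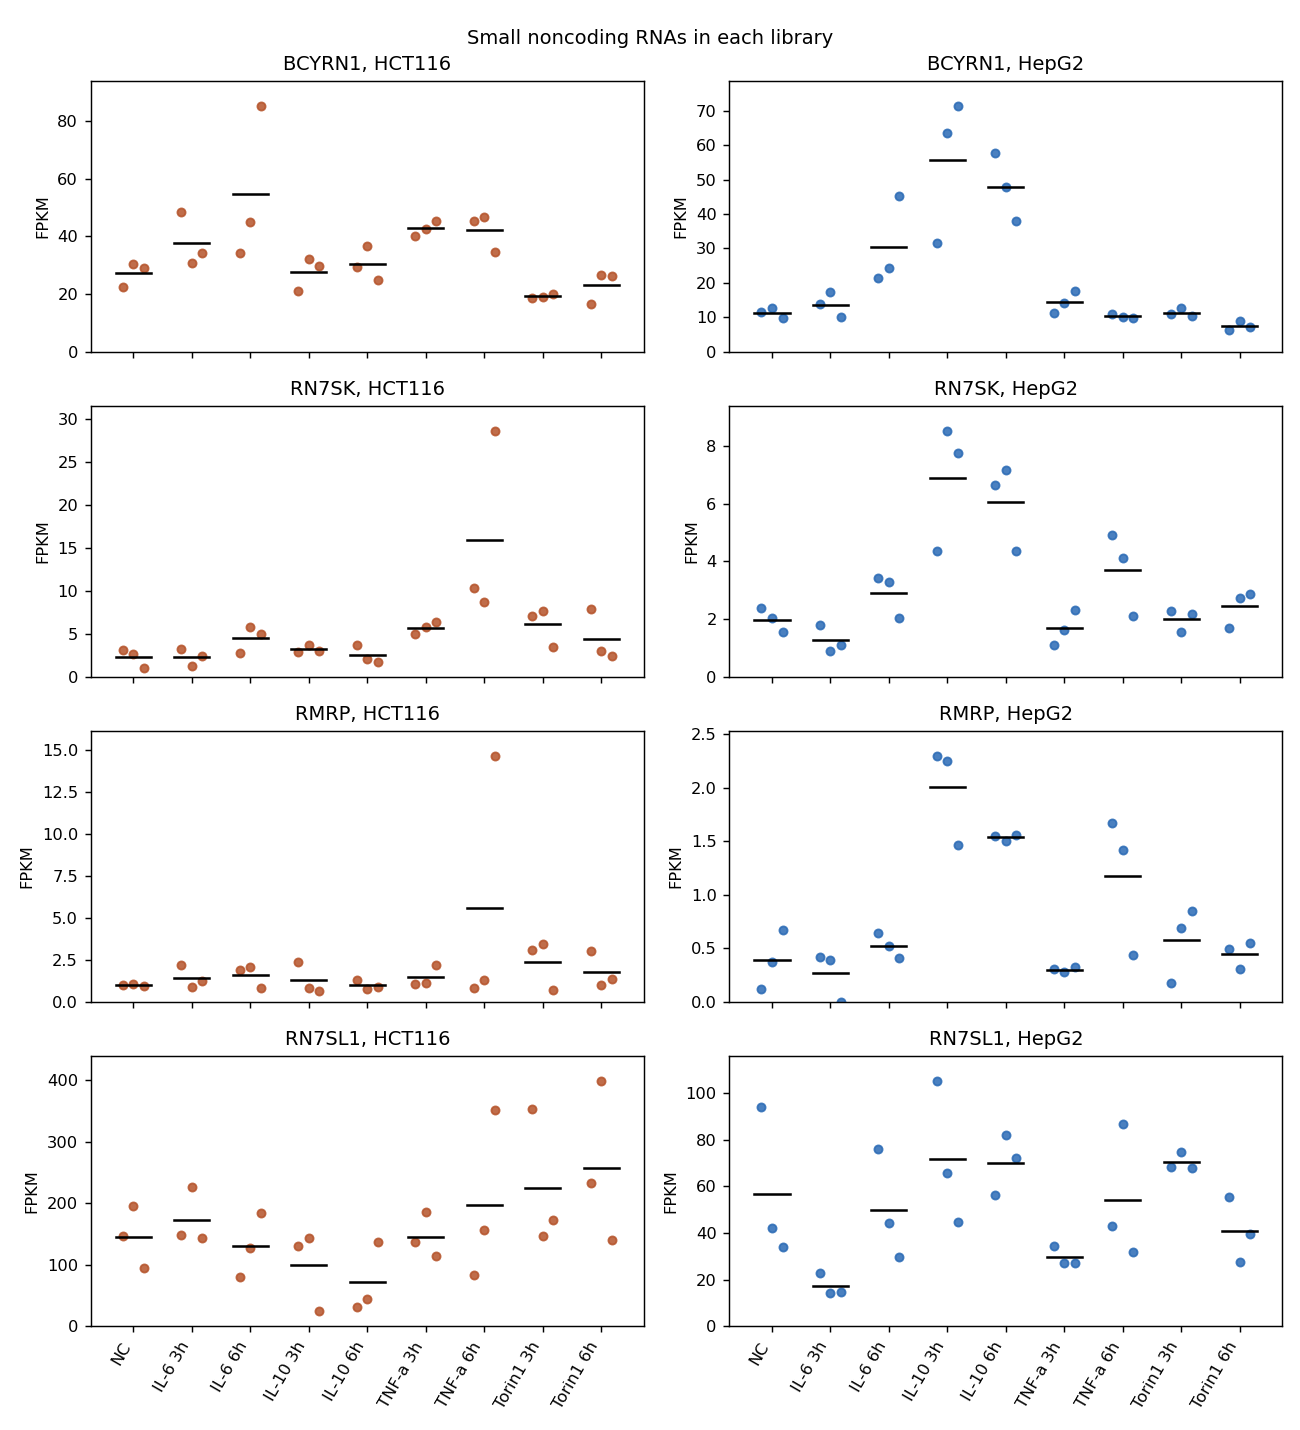
FPKM (y axis, linear, scaled for each panel) of BCYRN1, RN7SK, RMRP and RN7SL1 in each library of HCT116 (left) and HepG2 (right), with groups along the x axis. Points are libraries and bars are group means of 3. BCYRN1, RN7SK and RMRP are highest in the IL-10 groups of HepG2, and a single TNF-α library at 6 h tops the RN7SK and RMRP panels of HCT116.

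These RNAs varied far more between the 3 libraries of a group than the table did as a whole. The coefficient of variation, the SD as a percent of the mean, had a median over groups of 19.6% for BCYRN1, 42.9% for RN7SK, 46.5% for RMRP and 50.0% for RN7SL1 in HCT116. Over all 11395 genes tested in that line it was 4.37%. In HepG2 it was 20.9% for BCYRN1, 26.6% for RN7SK, 29.1% for RMRP and 34.2% for RN7SL1, against 4.14% over 11280 genes. Counting alone would give RN7SL1, which had 241 to 6438 reads, a coefficient of 2.08% in HCT116 and 3.48% in HepG2. The spread of RN7SL1 was 24.1 times the counting spread in HCT116 and 9.82 times in HepG2. BCYRN1 exceeded it 3.38 and 2.61 times, and RN7SK 3.48 and 1.79 times. RMRP in HepG2 was the exception, as its 29.1% lay under the 36.1% that counting gives for so few reads.

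**Figure D2:**
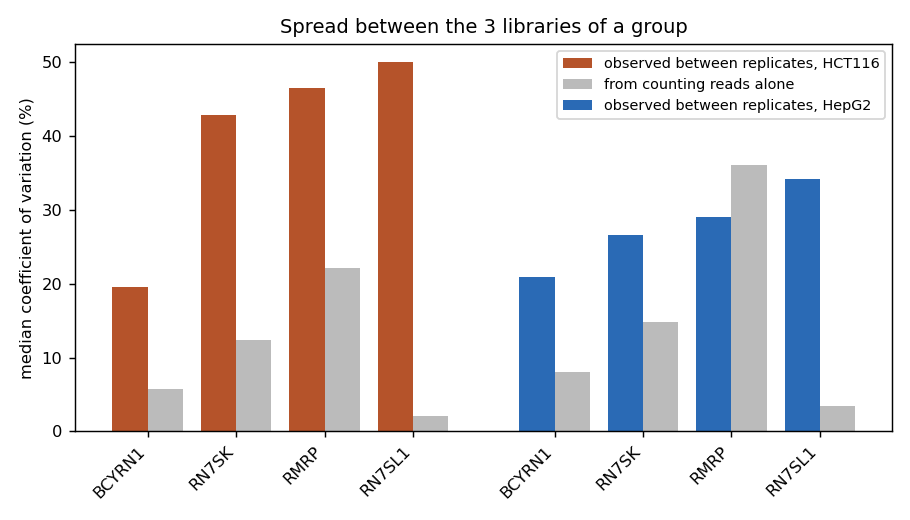
Median over the 9 groups of a line of the coefficient of variation between 3 libraries (y axis, percent; coloured bars) beside the value that counting reads alone gives (grey bars), for 4 RNAs in each line (x axis). RN7SL1 has the largest gap, 50.0% against 2.08% in HCT116, and RMRP in HepG2 is the only pair in which the grey bar is the taller.

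BCYRN1 in HepG2 was higher after IL-10 than in NC at both times. It was 31.5, 63.6 and 71.5 FPKM in the IL-10 libraries at 3 h and 57.8, 47.8 and 37.8 at 6 h, against 11.4, 12.6 and 9.9 in NC. Every IL-10 library lay above every NC library. The mean was 55.5 ± 21.2 FPKM (SD, n = 3) at 3 h and 47.8 ± 10.0 at 6 h, against 11.3 ± 1.34 in NC, which is 4.92 and 4.24 times the NC mean. On the log2(FPKM + 1) scale the difference was 2.13 ± 0.27 (SE; limma adjusted p = 1.03e-05) at 3 h and 1.98 ± 0.27 (adjusted p = 0.000249) at 6 h. Both calls held under every alternative setting and with each library left out.

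RN7SK, the P-TEFb inhibitor, rose in the same libraries. It was 4.36, 8.54 and 7.76 FPKM after 3 h of IL-10 and 6.64, 7.19 and 4.37 after 6 h, against 2.36, 2.03 and 1.53 in NC, with no overlap. The means were 3.49 and 3.07 times that of NC, with log2 differences of 1.37 ± 0.254 (adjusted p = 0.000663) and 1.23 ± 0.254 (adjusted p = 0.00406). Both calls held under every setting and left-out library.

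RMRP passed the filter of at least 1 FPKM in 3 libraries of HepG2 through 8 libraries, the 6 of IL-10 and 2 of TNF-α at 6 h, so its calls there follow in part from how it was admitted. It was 2.3, 2.25 and 1.47 FPKM after 3 h of IL-10 and 1.55, 1.5 and 1.56 after 6 h, against 0.119, 0.366 and 0.67 in NC. The NC libraries held 2 to 16 reads and the IL-10 libraries 22 to 33. No library of the groups overlapped, and the log2 differences were 1.12 ± 0.2 (adjusted p = 0.000458) and 0.89 ± 0.2 (adjusted p = 0.00742). With a pseudocount of 0.01 in place of 1 both calls were lost (adjusted p = 0.062 and 0.134). Over all alternatives and left-out libraries the adjusted p ran from 0.00045 to 0.062 at 3 h and from 0.00653 to 0.134 at 6 h.

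RN7SL1 did not pass the test after IL-10. It was 105, 65.7 and 44.9 FPKM at 3 h and 56.3, 82.3 and 72.0 at 6 h, against 94.1, 42.4 and 34.1 in NC, so the groups overlapped. The log2 differences were 0.39 ± 0.395 (adjusted p = 0.546) and 0.42 ± 0.395 (adjusted p = 0.546). Of the 4 members tested, 3 were therefore called higher after IL-10 in HepG2 at 3 h, where 19.1% of 11280 genes were called in either direction, and 3 at 6 h, where 11.7% were called. Without RMRP the count is 2 of 3 at each time.

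Other tailless or short RNAs were also higher in these libraries. The 28 ribosomal RNA rows, of which 21 were at 0 throughout, summed to 0.165 to 0.175 FPKM after 3 h of IL-10 against 0.086 to 0.126 in NC, 1.57 times the mean with no overlap, and to 0.1 to 0.142 after 6 h, with overlap. The other polymerase III rows (727 rows, transfer RNA, U6, Y, vault, 5S and 7SL copies among them) summed to 47.7 ± 4.51 FPKM after 3 h of IL-10 and 42.9 ± 3.99 after 6 h, against 35.7 ± 2.48 in NC. Every IL-10 library (40.1 to 52.3) was above every NC library (33.9 to 38.5). Among them, RNU6-8, a U6 gene, averaged 5.43 FPKM after 3 h of IL-10 and 2.29 in NC, and was not called. Of the 21 rows of this list that were tested, 1 was lower after 3 h, the transfer RNA row TRG-GCC2-4 (listed at 0 against 1.13 ± 0.458 FPKM), and none passed after 6 h. Small nucleolar RNAs, which guide modification of ribosomal RNA, summed to 2320 ± 15.1 FPKM after 3 h, 2190 ± 134 after 6 h and 2170 ± 30.3 in NC. Of 226 tested, 13 were higher at 3 h and 5 at 6 h, none lower, and their median log2 differences were 0.11 and 0.05. These counts are to be read against all 11280 genes tested. Of those, 809 were higher and 1340 lower at 3 h, and 212 higher and 1105 lower at 6 h. The median over all genes tested was -0.01 at 3 h and -0.03 at 6 h. Mitochondrially encoded protein genes took 7.24% to 8.54% of reads in the IL-10 groups and 7.1% to 7.73% in NC. The part of these values in the rises was not tested.

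Genes of the particles these RNAs belong to were also counted after IL-10 in HepG2. The shares called over all genes were 19.1% at 3 h and 11.7% at 6 h, and nothing particular to these small lists follows from their counts. Of 11 subunits of polymerase III itself, 1 was lower at 3 h and 1 at 6 h, and of 19 transcription factors and regulators of the enzyme, 1 and 2 were lower. Of 8 signal recognition particle proteins, 1 was higher and 1 lower at 3 h, and 1 was lower at 6 h. Of 7 genes of the 7SK particle and P-TEFb, 1 was higher and 1 lower at each time, and of 6 proteins that bind BC200, none passed at 3 h and 2 were lower at 6 h. None of 8 RNase P and MRP proteins passed at either time. EPCAM was 115 ± 0.456 FPKM after 3 h of IL-10 and 111 ± 2.44 in NC (log2 0.05, adjusted p = 0.21). It does not span BCYRN1 and is further from it than GSTA4 is from RN7SK. Values of EPCAM-DT, whose span holds BCYRN1, are not given here. GSTA4, beside RN7SK, was 27.4 ± 0.926 against 26.2 ± 0.58 FPKM (log2 0.07, adjusted p = 0.396), and CCDC107, beside RMRP, was 1.1 ± 0.234 against 1.05 ± 0.144 FPKM (log2 0.03, adjusted p = 0.91). RPS29, whose span holds RN7SL1, rose from 24.1 ± 4.62 to 34.7 ± 4.03 FPKM at 3 h (log2 0.52, adjusted p = 0.0289) and was 26.1 ± 2.6 at 6 h.

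Each of the other treatments of HepG2 had at most 1 member called against NC at either time. After 3 h of IL-6, RN7SL1 was lower, at 22.8, 14.2 and 14.7 FPKM against 94.1, 42.4 and 34.1 in NC, with no overlap (0.303 times the NC mean, log2 -1.56 ± 0.395, adjusted p = 0.0044). The call held under every setting and left-out library. RN7SL3, which shares nearly all its sequence, fell with it, from 4.92 ± 2.02 to 2.13 ± 0.754 FPKM (log2 -0.89 ± 0.261, adjusted p = 0.012). RN7SL1 was 1 of 4 members called, where 33.9% of genes were called. BCYRN1 was higher after 6 h of IL-6, at 21.3, 24.2 and 45.3 FPKM, all above NC (2.68 times, log2 1.28 ± 0.27, adjusted p = 0.00182), again 1 of 4 members, with 19.4% of genes called. That rise over NC held with each library left out and under the other settings that keep NC as the reference. With IL-10 of the same hour in place of NC the difference was -0.70 (adjusted p = 0.0668).

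TNF-α for 3 h had 0 of 4 members called in HepG2, where 29.7% of genes were called. After 6 h, RMRP was 1.67, 1.42 and 0.432 FPKM against 0.119, 0.366 and 0.67 in NC, and 1 of the TNF-α libraries lay within the NC range. It was called (log2 0.62 ± 0.2, adjusted p = 0.0246), the sole member of 4, where 28.7% of genes were called. The call was lost without NC replicate 1 (0.47) or 2 (0.62), without TNF-α replicate 1 (0.45) or 2 (0.52), and under 6 other settings: both other pseudocounts, voom, no filter, only the groups compared, and IL-10 in place of NC, where the difference was -0.27. RN7SK was 4.93, 4.11 and 2.11 FPKM there and did not pass (adjusted p = 0.0724).

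Torin1 had 0 of 4 members called against NC in HepG2 at 3 h, with 45.5% of genes called, and 0 of 4 at 6 h, with 59.9% called. BCYRN1 was 6.2, 9.01 and 7.15 FPKM after 6 h, each below all NC libraries, but the difference did not pass (log2 -0.55 ± 0.27, adjusted p = 0.0882). RN7SL1 was 68.5, 74.7 and 67.7 FPKM after 3 h, inside the NC range, and its coefficient of variation in that group was 5.42%.

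In HCT116, RN7SK and RMRP had their highest mean after 6 h of TNF-α, BCYRN1 after 6 h of IL-6 and RN7SL1 after 6 h of Torin1. RN7SK was 10.3, 8.7 and 28.7 FPKM after 6 h of TNF-α against 3.11, 2.6 and 1.01 in NC, so each treated library was above each control. The mean of 15.9 ± 11.1 was 7.1 times that of NC, 2.24 ± 1.1 (log2 2.26 ± 0.406, adjusted p = 0.000162). The third TNF-α library was the highest of all 27 for RN7SK and, at 14.7 FPKM and 203 reads, for RMRP, which was 0.816 and 1.26 FPKM in the other TNF-α libraries. It was also high for RN7SL1, at 351 FPKM against 84.3 and 156. The call for RN7SK held with every library left out, this one included, with log2 differences of 1.76 to 2.56 and an adjusted p of at most 0.00199. RMRP did not pass (adjusted p = 0.167). RN7SK was thus 1 of 4 members called, where 33.9% of 11395 genes were called.

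Other tailless or short RNAs also differed in these libraries. The ribosomal RNA rows summed to 0.196 to 0.551 FPKM after 6 h of TNF-α against 0.12 to 0.153 in NC, 2.72 times the mean with no overlap, and to 0.225 to 0.237 after 3 h (1.67 times, no overlap). The other polymerase III rows summed to 43.0 ± 14.3 FPKM after 6 h of TNF-α (31.6 to 59.0) and 36.1 ± 5.42 in NC (29.8 to 39.7), so the groups overlapped. Of 22 tested, 1 was higher, the transfer RNA row TRG-GCC1-5 (1.71 ± 0.504 against 0.196 ± 0.339 FPKM, adjusted p = 0.00385). Small nucleolar RNAs summed to 2400 ± 102 FPKM against 2090 ± 30.5, with 18 higher and 1 lower of 225 and a median log2 difference of 0.16. Over all 11395 genes tested, 1906 were higher and 1952 lower. Mitochondrially encoded protein genes took 5.84% to 6.13% of reads against 5.62% to 6.02%. The part of these values in the rise of RN7SK was not tested.

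After 3 h of TNF-α, RN7SK was 4.94, 5.74 and 6.39 FPKM and BCYRN1 40.3, 42.7 and 45.4 FPKM. The NC libraries held 22.4, 30.5 and 29.2 FPKM of BCYRN1, and neither RNA overlapped with its controls. Both were called, RN7SK at log2 1.11 ± 0.406 (adjusted p = 0.0339) and BCYRN1 at 0.64 ± 0.252 (adjusted p = 0.0476), 2 of 4 members where 41.6% of genes were called. The call for BCYRN1 was lost without any one of its 6 libraries (0.51 to 0.72, adjusted p 0.0544 to 0.175), and with total reads, voom, no filter or IL-10 in place of NC (adjusted p 0.0534 to 0.124). The call for RN7SK was lost without NC replicate 3 (0.79) and without TNF-α replicate 2 (1.1) or 3 (1.03), with voom (adjusted p = 0.0744), without a filter (0.092) and with same-hour IL-10 as the reference (0.68, adjusted p = 0.207). BCYRN1 at 6 h was 45.3, 46.9 and 34.7 FPKM, above all NC libraries, and did not pass (log2 0.61, adjusted p = 0.0674).

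**Figure D3:**
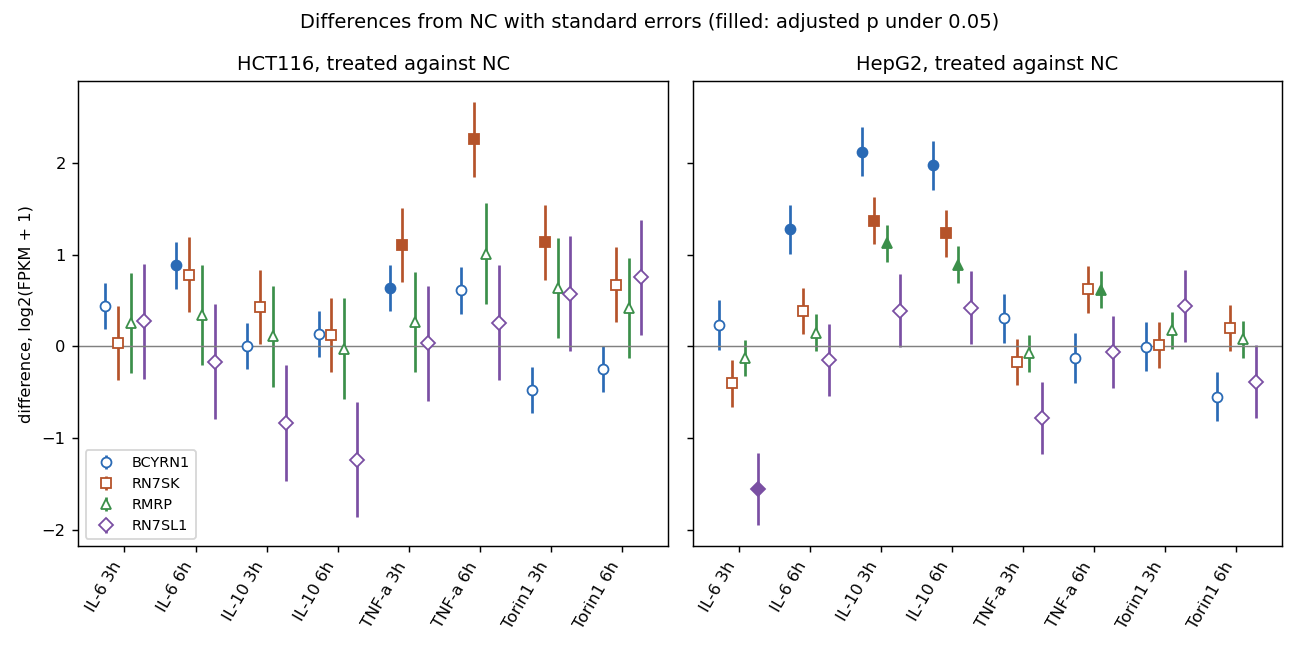
Difference of each treated group from NC (y axis, log2(FPKM + 1), with SE bars) for BCYRN1, RN7SK, RMRP and RN7SL1 in HCT116 (left) and HepG2 (right), by treatment and time (x axis). Filled marks have a limma adjusted p under 0.05, and the filled marks furthest from 0 are RN7SK after TNF-α for 6 h in HCT116 (2.26) and BCYRN1 after IL-10 for 3 h in HepG2 (2.13).

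IL-6 for 6 h gave the highest BCYRN1 mean in HCT116. The libraries were 34.1, 45.1 and 85.4 FPKM, above the 22.4 to 30.5 of NC, at 2.01 times the NC mean (log2 0.88 ± 0.252, adjusted p = 0.0214). It was 1 of 4 members, with 16.6% of genes called. The call was lost without IL-6 replicate 3 (0.52, adjusted p = 0.131) or NC replicate 1 (0.75, adjusted p = 0.0862), and the adjusted p ran from 0.0077 to 0.131 over the left-out libraries. It was also lost without a filter (adjusted p = 0.0683), with only the groups compared (0.127) and with same-hour IL-10 as the reference (0.75, adjusted p = 0.282). After 3 h of IL-6, 0 of 4 members were called, with 31.6% of genes called, although BCYRN1 at 48.5, 30.8 and 34.3 FPKM lay just above its controls (adjusted p = 0.195).

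With IL-10, 0 of 4 members were called in HCT116 at 3 h, with 38.8% of genes called, and 0 of 4 at 6 h, with 20.5% called. BCYRN1, which was higher after IL-10 in HepG2, was 20.9, 32.2 and 29.6 FPKM at 3 h and 29.3, 36.6 and 24.8 at 6 h, within or close to its NC range (log2 0.00 ± 0.252 and 0.14 ± 0.252). RN7SL1 was 131, 144 and 24.4 FPKM at 3 h and 32.3, 45.1 and 137 at 6 h, overlapping with NC at 147, 195 and 94.7. Its mean was 0.687 times that of NC at 3 h and 0.492 times at 6 h (log2 -0.836 and -1.234), and neither difference passed. The ratio of the highest to the lowest library was 5.92 at 3 h, the widest of any group for RN7SL1.

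RN7SK in HCT116 was higher after 3 h of Torin1, at 7.12, 7.64 and 3.49 FPKM, all above NC (2.72 times, log2 1.14 ± 0.406, adjusted p = 0.0228). That was 1 of 4 members, with 53.7% of genes called. The call was lost without NC replicate 3 (0.82), Torin1 replicate 1 (1.01) or Torin1 replicate 2 (0.96), with an adjusted p of 0.0104 to 0.128 over the left-out libraries. It was also lost with voom (adjusted p = 0.0547), without a filter (0.0629) and with same-hour IL-10 as the reference (0.71, adjusted p = 0.168). BCYRN1 was 18.7, 19.02 and 20.03 FPKM, the narrowest group of that RNA and below all NC libraries, and did not pass (log2 -0.47 ± 0.252, adjusted p = 0.12). At 6 h, 0 of 4 members were called, with 57.2% of genes called. RN7SL1 then was 233, 399 and 141 FPKM, the highest group mean of the RNA at 258 ± 131, and overlapped with NC (log2 0.76 ± 0.628, adjusted p = 0.319).

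Comparisons with NC share the 3 NC libraries of a line, and NC has no stated time, so the treated groups were also set against IL-10 of the same hour. In HCT116, where no member was called for IL-10 against NC, 2 of 24 tests were called. RN7SK after 6 h of TNF-α was higher by log2 2.13 ± 0.406 (adjusted p = 0.000251), 1 of 4 members with 42.3% of genes called. RN7SL1 after 6 h of Torin1 was higher by 1.99 ± 0.628 (adjusted p = 0.00984), 1 of 4 with 57.3% of genes called. That second call was lost without IL-10 replicate 1 (1.57, adjusted p = 0.0608) or Torin1 replicate 2 (1.61, adjusted p = 0.0573). Against NC, RN7SL1 differed by log2 0.755 after 6 h of Torin1 and by -1.234 after 6 h of IL-10, neither of them called. None of the 4 members was called for IL-6 at 3 h (0.237% of genes called), IL-6 at 6 h (0.114%), TNF-α at 3 h (36.5%) or Torin1 at 3 h (44.3%).

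In HepG2 these comparisons share the IL-10 libraries in which 3 members rose, and 17 of 24 tests were called, all lower than IL-10. Without RMRP it was 12 of 18. For IL-6 and for TNF-α at 3 h all 4 members were lower, with 22.8% and 16.1% of genes called. For Torin1 at 3 h it was 3 members, with 45.5% of genes called, and RN7SL1 was at log2 0.05. At 6 h, IL-6 was lower in 2 members (RN7SK and RMRP; 23.6% of genes called), TNF-α in BCYRN1 alone (34.8%) and Torin1 in 3 members (59%). The largest difference was BCYRN1 after 6 h of Torin1, at -2.52 ± 0.27 (adjusted p = 6.94e-08). RN7SL1 after 3 h of TNF-α (-1.17, adjusted p = 0.0479) lost its call without IL-10 replicate 1 (-0.86) or 2 (-1.19) or without TNF-α replicate 1 (-1.28), 2 (-1.11) or 3 (-1.12), and with voom, no filter or only the groups compared (adjusted p 0.0625 to 0.129). RN7SK after 6 h of IL-6 (-0.85, adjusted p = 0.0189) lost it without IL-10 replicate 1 (-0.78) or 2 (-0.73) or without IL-6 replicate 3 (-0.67), and without a filter (adjusted p = 0.0562). RMRP after 6 h of IL-6 (-0.74, adjusted p = 0.0102) lost it with a pseudocount of 0.1 (adjusted p = 0.0765) or 0.01 (0.264) and with voom (0.0637). With a pseudocount of 0.01 the RMRP calls for TNF-α at 3 h (adjusted p = 0.0623) and for Torin1 at 3 h (0.0898) and 6 h (0.113) were lost too.

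Between 3 h and 6 h of the same treatment, few calls were made, and each was lost with at least 1 single library left out. In HCT116, RN7SK was higher at 6 h of TNF-α than at 3 h (log2 1.15 ± 0.406, adjusted p = 0.0305), 1 of 4 members with 37.3% of genes called. Without TNF-α 6 h replicate 3 the difference was 0.65 (adjusted p = 0.22), and without 3 h replicate 1, 2 or 3 it was 1.07, 1.16 and 1.23 with an adjusted p of 0.0507 to 0.0811. It was also lost with either other pseudocount, without a filter and with only the groups compared (adjusted p 0.0524 to 0.0863). IL-6, IL-10 and Torin1 gave 0 of 4 members each, with 18.4%, 20% and 30.4% of genes called.

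In HepG2, IL-6 gave 3 of 4 members higher at 6 h than at 3 h, with 23.5% of genes called. RN7SL1 was at log2 1.41 ± 0.395 (adjusted p = 0.0128), BCYRN1 at 1.04 ± 0.27 (adjusted p = 0.00754) and RN7SK at 0.79 ± 0.254 (adjusted p = 0.0282). RN7SL1 lost its call without IL-6 6 h replicate 1 (1.06) and BCYRN1 without IL-6 6 h replicate 3 (0.72). RN7SK lost it without 3 h replicate 2 (0.68) or 3 (0.75) or 6 h replicate 1 (0.69) or 2 (0.72). TNF-α gave 2 of 4 members, RMRP (0.69 ± 0.2, adjusted p = 0.0145) and RN7SK (0.79 ± 0.254, adjusted p = 0.0261, with overlapping libraries), where 25.4% of genes were called. RMRP lost its call without TNF-α 6 h replicate 1 (0.52) or 2 (0.59), and RN7SK without 3 h replicate 1 (0.63) or 2 (0.79) or 6 h replicate 1 (0.6) or 2 (0.71). All 5 calls were lost with only the groups compared. IL-10 and Torin1 gave 0 of 4, with 16% and 36.4% of genes called.

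The untreated lines differed in 2 of the 4 RNAs, both higher in HCT116, where 85.6% of 12992 genes were called. BCYRN1 averaged 27.4 ± 4.37 FPKM in HCT116 NC and 11.3 ± 1.34 in HepG2 NC (log2 1.2 ± 0.271, adjusted p = 0.000104), and RN7SL1 145 ± 50.2 and 56.8 ± 32.5 FPKM (log2 1.42 ± 0.544, adjusted p = 0.0156). Neither RNA overlapped between the lines. The RN7SL1 call was lost without HCT116 NC replicate 2 (1.18), HepG2 NC replicate 2 (1.28) or HepG2 NC replicate 3 (1.13), and with the replicate block (0.99, adjusted p = 0.119). RN7SK was 2.24 ± 1.1 and 1.97 ± 0.418 FPKM, overlapped and did not pass (log2 0.07 ± 0.351, adjusted p = 0.862). RMRP was 0.999, 1.04 and 0.927 FPKM in HCT116 NC, above all 3 HepG2 NC libraries, and did not pass (log2 0.54 ± 0.427, adjusted p = 0.235).

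The difference between the lines in their responses was tested itself over 9683 genes. The response of BCYRN1 to IL-10 was lower in HCT116 than in HepG2 by log2 2.13 at 3 h (-2.125 ± 0.382, adjusted p = 7.27e-05) and by 1.84 at 6 h (-1.84 ± 0.382, adjusted p = 0.000885). Both calls held under every setting and left-out library. They were 1 of 4 members at each time, with 24.4% and 16.8% of genes called. The response of RN7SK to 6 h of TNF-α was larger in HCT116 by 1.64 ± 0.494 (adjusted p = 0.017), 1 of 4 members with 16.8% of genes called. It lost the call without HCT116 TNF-α replicate 3 (1.14), HCT116 NC replicate 3 (1.32) or HepG2 TNF-α replicate 3 (1.36), with voom (1.91, adjusted p = 0.0788) and with only the groups compared (adjusted p = 0.0809). None of the 4 members was called for its response to IL-6 at 3 h (33.3% of genes called) or 6 h (15.8%), TNF-α at 3 h (22.9%) or Torin1 at 3 h (39.9%) or 6 h (50.1%). Over all 45 comparisons, 21 had no member called by limma. In 7 of these, 1 member had an unadjusted p under 0.05, and in 1 of them, RN7SL1 after 3 h of Torin1 against IL-10 in HCT116, the voom fit on recovered reads made a call. With only the groups compared, 16 tests of a member over all 45 comparisons gained a call and 10 lost it. Other alternatives made calls in the comparisons without a call too, and examples follow. With TMM factors it was BCYRN1 after 3 h of TNF-α against IL-10 in HCT116 (0.656, limma adjusted p = 0.048). With a pseudocount of 0.1 it was the difference in RN7SK response to 3 h of TNF-α (1.705, limma adjusted p = 0.0439).

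**Figure D4:**
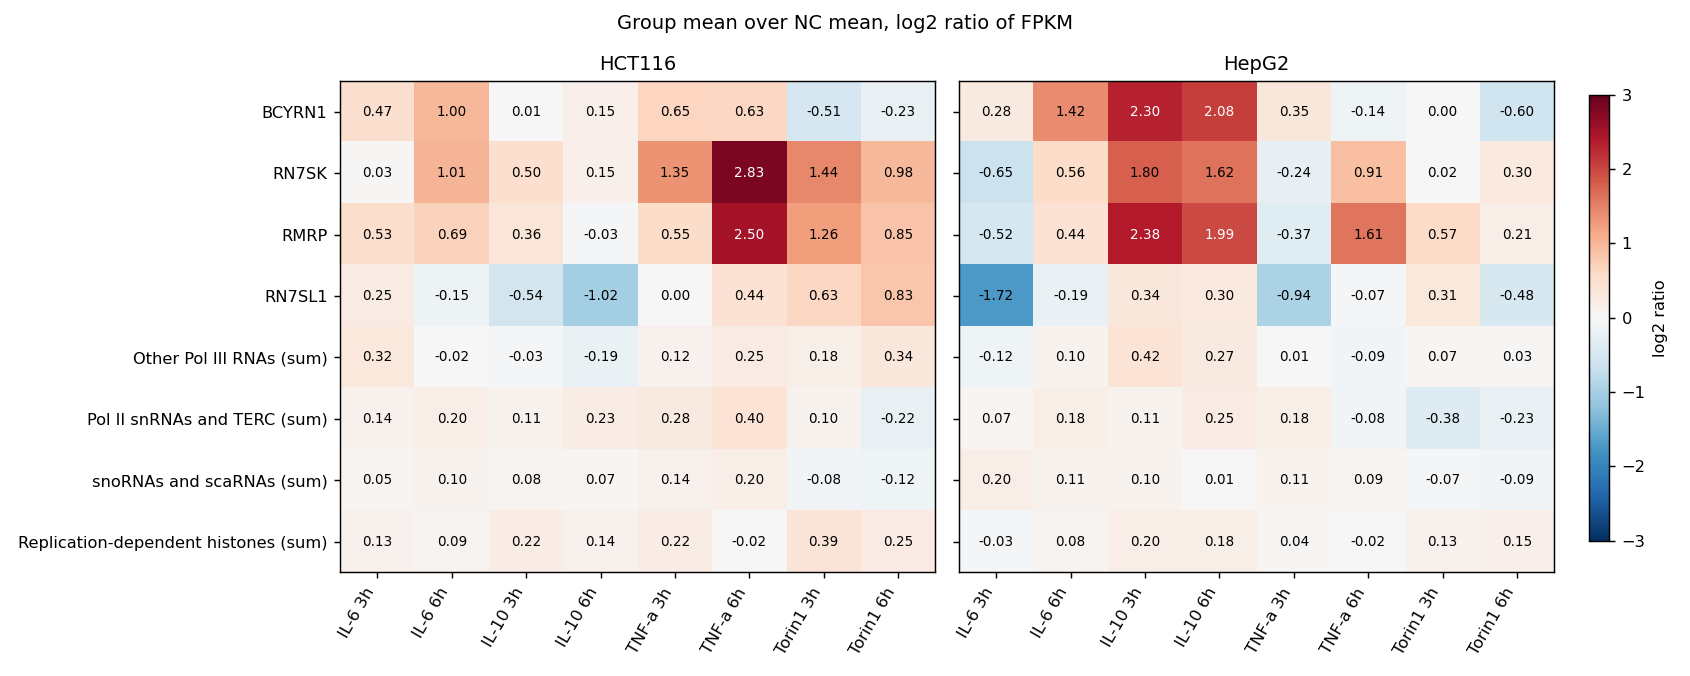
Log2 ratio of the group mean FPKM to the NC mean (colour and printed value), by treatment and time (x axis), for 4 RNAs and for the summed FPKM of 4 lists of other short or tailless RNAs (y axis), in HCT116 (left) and HepG2 (right). BCYRN1, RN7SK and RMRP reach 2.3, 1.8 and 2.38 after 3 h of IL-10 in HepG2, where the summed lists shown lie between 0.1 and 0.42. The summed ribosomal RNA rows, not shown, were at 0.65 there and at 1.44 after 6 h of TNF-α in HCT116.

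The order of the groups was resolved at few places. In HepG2, BCYRN1 was highest in IL-10 at 3 h, IL-10 at 6 h and IL-6 at 6 h, neighbours whose libraries overlapped. The next group, TNF-α at 3 h (11.3 to 17.5 FPKM), did not overlap with IL-6 at 6 h (21.3 to 45.3), and the lowest group, Torin1 at 6 h, did not overlap with the one above it. In HCT116 every pair of neighbouring BCYRN1 groups overlapped, from IL-6 at 6 h (54.9 ± 27.02) down to Torin1 at 3 h (19.2 ± 0.699). RN7SK in HCT116 had 1 gap in its order, between TNF-α at 6 h and the rest, and none in HepG2. RN7SL1 had 1, in HepG2, between TNF-α at 3 h and the lowest group, IL-6 at 3 h (17.2 ± 4.85 FPKM). RMRP had none in either line.

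RN7SL1 and RN7SL3 ran in parallel over single libraries. RN7SL3 was 2.04 to 22.2 FPKM in HCT116 and 1.63 to 7.67 in HepG2, and the Spearman coefficient with RN7SL1 over 27 libraries was 0.95 and 0.92. The ratio of RN7SL1 to RN7SL3 was 9.3 to 23.7 (median 16.2) in HCT116 and 7.6 to 15.2 (median 9.89) in HepG2. Libraries share their depth and both rows share nearly all their sequence, so the coefficient is a description. In HCT116 after 6 h of TNF-α, RN7SL3 was 5.38, 13.3 and 22.2 FPKM, in the same order of libraries as the 84.3, 156 and 351 of RN7SL1.

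**Figure D5:**
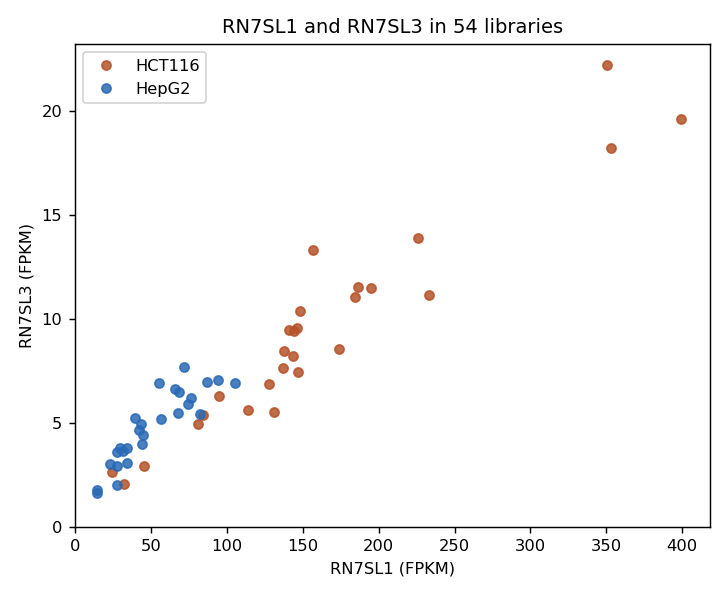
RN7SL3 (y axis, FPKM) against RN7SL1 (x axis, FPKM), each point 1 of 54 libraries, coloured by line. The points lie along a rising band in both lines, with the HepG2 points below 105 FPKM of RN7SL1 and the HCT116 points reaching 399.

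The other members resembled one another less. In HepG2 the Spearman coefficients over 27 libraries were 0.68 for RN7SK with RMRP, 0.57 for RN7SK with RN7SL1, 0.53 for RN7SL1 with RMRP, 0.49 for BCYRN1 with RN7SK, 0.4 for BCYRN1 with RMRP and 0.21 for BCYRN1 with RN7SL1. In HCT116 they ran from -0.19 for BCYRN1 with RN7SL1 to 0.42 for RN7SK with RMRP. The points share their groups, library depth and base composition. Ranked over 9683 genes by the smaller coefficient of the lines, the genes most like BCYRN1 were SNORD104, a small nucleolar RNA (0.84 in HCT116 and 0.76 in HepG2), PPP1R14B (0.74 and 0.75) and UQCC5 (0.77 and 0.73). For RN7SK they were SNORD3A, which encodes U3 (0.73 and 0.62), RPS10 (0.72 and 0.61) and VAMP8 (0.64 and 0.56). For RN7SL1 they were RN7SL3, COQ6 (0.52 and 0.64) and CKAP2-DT (0.55 and 0.45). The RMRP coefficients were the weakest, with SECTM1 (0.5 and 0.47), ZNF814 (0.5 and 0.44) and DPM3 (0.47 and 0.42).

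Torin1, after which no member passed in HepG2, was the treatment under which most genes were called: 53.7% at 3 h and 57.2% at 6 h in HCT116, and 45.5% and 59.9% in HepG2. The counts of the machinery that makes and binds these RNAs are to be read against those shares, and nothing particular to it follows from them. Of 11 polymerase III subunits, 1 rose and 7 fell at 3 h in HCT116, and 2 rose and 6 fell at 6 h, with median log2 differences of -0.28 and -0.25 beside -0.00455 and -0.02 over all genes. In HepG2 it was 3 and 4 at 3 h and 4 and 4 at 6 h, with medians of 0.02 and 0.05 beside -0.04 and -0.03. POLR3G, the subunit tied to proliferating cells, fell from 28.2 ± 1.22 to 17.0 ± 0.678 FPKM in HCT116 at 6 h (log2 -0.70, adjusted p = 2.75e-11) and from 4.76 ± 0.0693 to 3.05 ± 0.135 in HepG2 (-0.51, adjusted p = 1.56e-08). POLR3K fell and POLR3D rose in both lines at both times. MAF1, the repressor that mTOR restrains, rose at 6 h from 32.8 ± 1.18 to 47.2 ± 2.74 FPKM in HCT116 (0.51, adjusted p = 1.38e-09) and from 32.2 ± 1.54 to 39.6 ± 0.535 in HepG2 (0.29, adjusted p = 1.9e-05). These are levels of messenger RNA, not of protein or of its phosphorylation.

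Over all genes, 3585 of 11395 fell and 2936 rose in HCT116 after 6 h of Torin1, and 3808 of 11280 fell and 2948 rose in HepG2. Of 8 signal recognition particle proteins, 7 fell and none rose in HepG2 after 6 h of Torin1, and 4 fell and 1 rose in HCT116, while RN7SL1 itself passed in neither line. SRP68, which binds 7SL directly, fell from 57.2 ± 0.215 to 40.1 ± 1.76 FPKM in HepG2 (log2 -0.50, adjusted p = 6.7e-13) and from 72.9 ± 0.462 to 52.8 ± 1.44 in HCT116 (-0.46, adjusted p = 2.86e-12). Of the RNase P and MRP proteins, 7 of 9 fell in HCT116 and 5 of 8 in HepG2 after 6 h, with 1 rising in each. POP1, shared by both enzymes, fell from 38.8 ± 1.18 to 24.6 ± 0.893 FPKM in HCT116 (-0.64, adjusted p = 3.73e-13) and did not pass in HepG2 at 6 h (-0.09, adjusted p = 0.0563). POP7 fell in both lines at both times.

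Partners of 7SK passed in both directions, among 57.2% of genes called in HCT116 and 59.9% in HepG2 at 6 h. HEXIM1, which 7SK needs to hold P-TEFb, fell after 6 h of Torin1 from 13.1 ± 0.645 to 5.72 ± 0.353 FPKM in HepG2 (log2 -1.06, adjusted p = 1.37e-12) and from 16.6 ± 0.325 to 13.4 ± 0.924 in HCT116 (-0.29, adjusted p = 2.35e-06). CCNT1 and CCNT2, the cyclins of P-TEFb, rose in both lines at both times. Of this list 3 rose and 2 fell among 6 tested in HCT116, and 4 rose and 1 fell among 7 in HepG2, at 6 h. Of 6 proteins that bind BC200, 3 rose and 2 fell in HCT116 and 2 rose and 4 fell in HepG2. FMR1 among them rose from 20.1 ± 0.148 to 37.2 ± 0.966 FPKM in HepG2 (0.86, adjusted p = 1.44e-13). Of the other polymerase III RNAs, 2 of 22 rose in HCT116 after 6 h, the transfer RNA rows TRG-GCC1-5 (1.17 ± 0.567 FPKM) and TRD-GTC2-6 (1.24 ± 0.324 FPKM), and none of 21 passed in HepG2 at either time.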

How the data were processed

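RNA was sequenced from 54 libraries of HCT116 and HepG2 cells in 18 groups of 3, after poly(A) selection, per the labels' protocols. The authors deposited 1 table of FPKM values for 50037 genes. The submitters' processing notes name FastQC, HISAT2, StringTie, DESeq2 and GRCh38 without roles. The counting tool and its use of strand are not given in the sources used here. A further 48 columns of the table hold per-comparison values whose samples are not named and were not used. Antisense and overlapping genes may therefore share reads, as may the near-identical 7SL copies.

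The 6 members and the lists of related genes were chosen with earlier results of these data known. Whole reads could be recovered from the FPKM steps for 36448 of 36451 rows above 0 (99.99%, within 0.01 read), which gave the depth and read counts; the deposited scale followed median-of-ratios size factors within 0.998 to 1.002. Values were tested as log2(FPKM + 1) with limma 3.58.1 (R 4.3.3), with an intensity trend, 1 fit per line over its 9 groups and 1 over both lines for comparisons between them. Genes needed at least 1 FPKM in 3 libraries. That left 11395 genes in HCT116 and 11280 in HepG2, 12992 in either line for the comparison of NC and 9683 in both for the difference of responses. P-values were adjusted by Benjamini-Hochberg over all of them, and a call is an adjusted p under 0.05. Differences on this scale understate the change of low genes.

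Alternatives were pseudocounts of 0.1 and 0.01, no filter, total reads or TMM factors as the scale, limma-voom on the recovered reads, a replicate block, only the groups compared, IL-10 of the same hour in place of NC, and each library left out. Same-numbered libraries did not deviate together (correlations of -0.117 to 0.107; 0 of 16 groups with all 3 over 0.1). Named related genes were those of each list with the largest called differences under Torin1 and some genes over or near each member. Spearman coefficients were ranked by the smaller of the lines. Scripts were tested on simulated data. Places are from RefSeq. The members' sequences are not reported here. Python 3.11.15, pandas 2.3.3 and numpy 2.4.6 were used.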

Additional observations from a re-analysis of the deposited data

Results flagged for a closer look

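The effect of a treatment differed between HCT116 and HepG2 in 3 cases, each by the test of the difference itself. The response of BCYRN1 to IL-10 differed by -2.125 on the log2 scale at 3 h and by -1.84 at 6 h, with the HCT116 response the smaller. The response of RN7SK to 6 h of TNF-α differed by 1.636, with the HCT116 response the larger, and this call was lost without any one of 3 libraries, with voom (adjusted p = 0.0788) and with only the groups compared (adjusted p = 0.0809).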

How the results depend on the processing

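With IL-10 of the same hour in place of NC, differences in HepG2 turned sign for BCYRN1 after IL-6 at 3 h (-1.89) and 6 h (-0.70) and TNF-α at 3 h (-1.82), for RN7SK after Torin1 at 3 h (-1.36) and 6 h (-1.03) and IL-6 at 6 h (-0.85), and for RMRP after Torin1 at 3 h (-0.95) and 6 h (-0.81), IL-6 at 6 h (-0.74) and TNF-α at 6 h (-0.27). The IL-10 groups are where these RNAs were highest, and exchanging the reference changes what is compared. Against NC, only BCYRN1 after 6 h of IL-6 and RMRP after 6 h of TNF-α among these had been called. No other alternative turned a called difference.

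Counts of calls moved as follows; the cause was not tested. Against NC in HCT116 there were 5, all higher, and 2 with voom, 1 without a filter and 2 to 6 with a library left out. With only the groups compared there were 6, of which 1 was lower. Between 6 h and 3 h in HCT116 there was 1, and 0 with a pseudocount of 0.1 or 0.01, without a filter or with only the groups compared, and 0 to 1 with a library left out. Between the times in HepG2 there were 5, all higher at 6 h, and 3 with voom, 3 without a filter and 3 to 5 with a library left out. With only the groups compared there were 2, each lower at 6 h and not called in the main fit. Against IL-10 in HCT116 there were 2, each higher, and 1 to 4 with a library left out. With only the groups compared there were 5, of which 1 was lower. Between the NC groups there were 2, and 1 to 2 with a library left out. Differences of response gave 3, and 8 with only the groups compared and 2 to 5 with a library left out. Against NC in HepG2 there were 9, and 8 to 10 with a library left out and 6 with a pseudocount of 0.01. Against IL-10 in HepG2 there were 17, and 16 to 18 with a library left out, 13 with a pseudocount of 0.01 and 15 without a filter.

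The labels number the replicates alike in every group, but the libraries share only a number. The replicate block gave 1 call between the NC groups, 5 and 9 against NC in HCT116 and HepG2, 3 and 18 against IL-10, 1 and 5 between the times and 3 for the differences of response. Reads were few for RMRP in HepG2, at 0 to 33 per library, and for RPPH1, and the cause was not tested. Why RN7SL2 was listed at 0 was not tested.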
